A study of Mus musculus with 6 samples.

Results

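Leukocyte integrins and the selectin ligand PSGL-1 were read out of RNA-seq counts from 6 libraries labelled as sorted mouse basophils. The genes were 9, chosen by name among the 55401 gene rows of the count table: the alpha chains Itga2, Itga4, Itgal, Itgam and Itgax, the beta chains Itgb1, Itgb2 and Itgb7, and Selplg, which encodes PSGL-1. None of the 9 is itself a selectin, so P- and E-selectin (Selp and Sele) are given beside Selplg. All 9 had a matching row, 8 passed the filter on low counts, and Itga2 did not.

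The mice of the series were given an atopic dermatitis-like skin inflammation by painting both ears each day, day 0 through day 6, with MC903 (an analogue of vitamin D, 2 nmol dissolved in 10 µL ethanol), and control ears got only the ethanol. The libraries form set A and set B, with 3 libraries each, all from wild-type mice, and no age or other allele is given. The labels tie neither MC903 nor ethanol to a set, so each difference below is B minus A, and they name blood as the source where the series' design text names ear skin. Live CD45+ cells without lineage markers and with CD49b and FcεRIα or IgE were sorted. Whether the libraries of a set are separate mice or pools is not given, so a p-value here reflects only how these libraries scatter, and that scatter may be technical.

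Total counts ran from 46137963 to 63956911 per library. Ptprc, which encodes the CD45 of the gate, was at 532 to 905 CPM (a gene's counts divided by the library's total, times 1000000) in all 6. The 8 basophil markers listed summed to 1.71 to 118 CPM in A, with 5 or 6 of the 8 above 3 counts, and to 1090.3 to 2521 CPM in B, with 7 or 8 above it. Fcer1a, the IgE-binding chain, had 4, 0 and 0 counts in A and 2681 to 10736 in B, and the basophil protease gene Mcpt8 had 36 to 59 counts in A and 30568 to 58346 in B. Gata2 went otherwise, at 0.109, 45.6 and 116 CPM in A, against 42.8, 1.15 and 24.8 in B, and Il4 had 535 counts in B replicate 1 and 0 elsewhere. The basophil label is thus not borne out by Fcer1a and Mcpt8 in A. Summed markers of neutrophils were 2399.9 to 9449 CPM in A and 12286 to 22831 in B, those of T cells 821 to 1189.9 and 287 to 623, those of platelets 1287 to 1387 and 598 to 904, and those of erythroid cells 269.5 to 629.9 and 109 to 179. Sums for natural killer cells, monocytes and B cells overlapped between the sets. In such bulk libraries fewer cells of a type and less RNA per cell cannot be told apart.

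Integrins are adhesion receptors built from an alpha and a beta chain, and on leukocytes they hold cells to vessel walls, to matrix and to other cells. Itgb2 (CD18) is restricted to leukocytes and pairs with Itgal (CD11a) to form LFA-1, with Itgam (CD11b) to form Mac-1, and with Itgax (CD11c). Itga4 (CD49d) pairs with Itgb1 (CD29) or with Itgb7, and Itga2 (CD49b) pairs with Itgb1 to form a collagen receptor that serves as a surface marker of mouse basophils and natural killer cells and is also carried by platelets. PSGL-1 is a mucin-like protein that binds selectins once its sugars carry fucose and sialic acid, and it lets leukocytes tether and roll before integrins arrest them.

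Upstream sequences are shown for Itgam, Itgax and Itga2, because these are the 3 genes that lay under 1 CPM in at least 1 library. RefSeq windows on GRCm38.p6 were found for 6 of the 9 genes, and the 250 bases before the start are printed 5′ to 3′ on the gene's strand. The window of Itgam is chr7:128062390-128062639 (plus strand), that of Itgax chr7:128129300-128129549 (plus strand), and that of Itga2 chr13:114932101-114932350 (minus strand). Capitals mark matches, on either strand, to the ETS core bound by PU.1 (GAGGAA), to a RUNX core (TGTGGT), to a GATA core (AGATAA) or to a TATA box (TATAAA).
Itgam: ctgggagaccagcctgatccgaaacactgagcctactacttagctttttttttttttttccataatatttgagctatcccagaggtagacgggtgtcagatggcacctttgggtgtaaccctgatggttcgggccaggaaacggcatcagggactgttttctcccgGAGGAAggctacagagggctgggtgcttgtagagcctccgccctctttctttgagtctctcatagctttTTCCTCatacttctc
Itgax: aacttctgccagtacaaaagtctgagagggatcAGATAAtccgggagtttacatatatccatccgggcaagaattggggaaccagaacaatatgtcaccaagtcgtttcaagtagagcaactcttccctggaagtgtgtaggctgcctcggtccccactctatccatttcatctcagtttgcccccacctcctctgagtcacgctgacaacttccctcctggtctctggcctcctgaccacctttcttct
Itga2: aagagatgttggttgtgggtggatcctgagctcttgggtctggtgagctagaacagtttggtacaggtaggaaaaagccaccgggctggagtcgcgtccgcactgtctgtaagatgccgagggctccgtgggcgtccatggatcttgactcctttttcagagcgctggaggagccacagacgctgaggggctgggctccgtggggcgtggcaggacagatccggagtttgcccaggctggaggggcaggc
The Itgam window held 2 matches to GAGGAA, which 23.3% of 32851 such windows held, the Itgax window held 1 match to AGATAA (9.99% of windows), and the Itga2 window held none of the 4 motifs. The RUNX core, which 14.0% of windows held, and the TATA box, which 12.4% held, had no match in these 3 windows. A match is a run of letters and no evidence of binding.

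Levels differed far more between genes than between sets. To compare genes, CPM was divided by coding length, giving CPM per kb. Over the 6 libraries Selplg averaged 1158 CPM per kb (776 to 1650.1) and Itgb2 609 (463 to 843). Itgb7 followed at 133 (61.8 to 185), with a range wholly below that of Itgb2. Itga4 at 53.7, Itgb1 at 52.1 and Itgal at 43.1 CPM per kb did not differ beyond their spread. Itgax at 18.5, Itgam at 15.2 and Itga2 at 2.16 came last, and the range of each overlapped that of its neighbour in the order. Per kb of all exons, in place of coding length, 6 of the 9 genes changed place. Itgb2 then stood above Selplg, and Itga4 fell below Itgb1, Itgal and Itgax. The order thus depends on the length used, while Itgb7, Itgam and Itga2 kept their places.

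**Figure D1:**
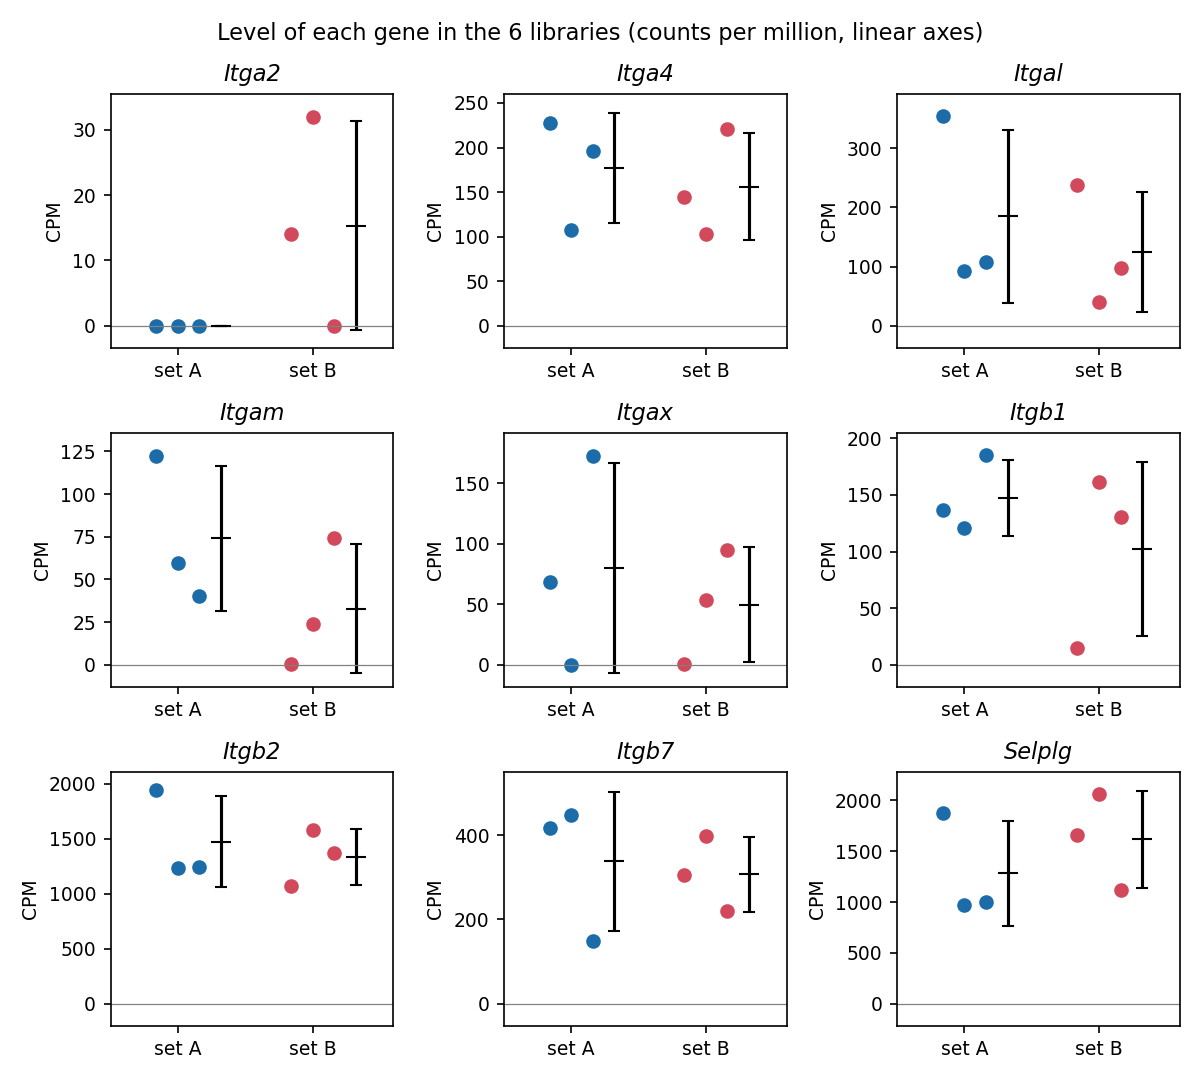
CPM (linear axes) of each of the 9 genes in the 3 libraries of set A (blue) and set B (red), in the order of replicates 1 to 3, with the mean and SD (n = 3) in black beside the points. Itgb2 and Selplg lie near or above 1000 CPM in all 6 libraries, while Itga2 lies at 0 in 4 of them.

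Among the beta chains Itgb2 was the most even. It was at 1948, 1231 and 1243 CPM in A replicates 1, 2 and 3 and at 1069, 1576 and 1368 CPM in B. The sets overlapped. The highest library was 1.82 times the lowest, where the median over the 117 tested genes averaging at least 1000 CPM was 1.83. Itgb7, which with Itga4 forms the receptor for the gut addressin MAdCAM, was at 417, 447 and 149 CPM in A, against 305, 397 and 219 in B. In both sets the lowest library was replicate 3, but the replicate numbers were not taken as pairs across the sets. Itgb1, the common partner of Itga4 and Itga2, was at 137, 120.4 and 185 CPM in A, against 14.8, 161 and 130.4 in B. A single library, B replicate 1, stood at 736 counts of Itgb1 where the other 5 had 6367 to 9492.

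The alpha chains that pair with Itgb2 varied between libraries of the same set. Itgal, the chain of LFA-1 that binds ICAM on other cells, was at 354, 92.9 and 108 CPM in A, against 238, 40.5 and 97.4 in B. Replicate 1 was the highest library of each set, though the numbers were not taken as pairs, and the sets overlapped. Itgam, the chain of Mac-1 that binds complement fragment iC3b and is abundant on neutrophils and monocytes, was at 122, 59.5 and 40.5 CPM in A, against 0.362, 23.6 and 74.3 in B. B replicate 1 held 18 counts of Itgam, where the other libraries held 1395 to 6709. That library had the highest neutrophil marker sum of the 6, at 22831 CPM, and a monocyte marker sum of 2273 CPM against 2550.2 to 3929 in the others. Itgax, best known from dendritic cells, was at 68.3, 0.113 and 172 CPM in A, against 0.281, 53.4 and 94.8 in B. Its counts were 6 in A replicate 2 and 14 in B replicate 1, and 3158 to 7933 in the other 4 libraries. The dendritic cell marker sum was 284 CPM in A replicate 2 and 92.1 in B replicate 1, and 31.0 to 206 in the other 4. Most of the sum in A replicate 2 was Cd209a (229 CPM). Flt3 was at 22.2, 0.113 and 66.1 CPM in A. It was at 0 in every B library, those with Itgax at 53.4 and 94.8 CPM included. Other genes of the list differed from Flt3. Xcr1 was at 16.9 CPM in B replicate 2 and at 0 to 0.0757 CPM elsewhere. Zbtb46 was at 4.29 CPM in A replicate 3 and at 0 elsewhere. Bst2 was at 7.91, 54.2 and 29.2 CPM in A, against 30.0, 72.0 and 53.3 in B. The part of dendritic cells in the Itgax levels was not tested.

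Per kb of coding length, Itgal, Itgam, Itgax and the related Itgad together made up 4.87% to 18.1% of the Itgb2 level. Itgal was 99.7% of this alpha chain sum in B replicate 1, 64.4% in A replicate 1 and 60.2% in A replicate 2. In the other 3 libraries it was 33.2% to 35.3%. Itgax made up 54.1% in A replicate 3 and 45.9% in B replicate 2, the largest share in each. Itgad had 305 counts in B replicate 3 and 0 elsewhere. Itgam, Itgax and Itgad are close relatives, and how shared reads were assigned was not stated in the labels.

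**Figure D2:**
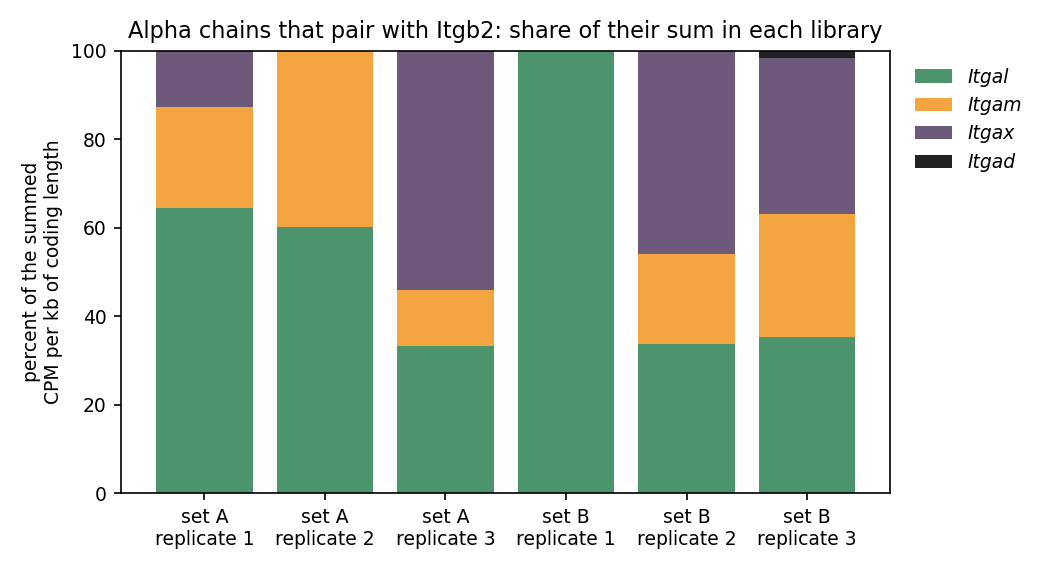
Stacked bars give, for each library, the percent of the summed CPM per kb of coding length that came from Itgal, Itgam, Itgax and Itgad. Itgal fills almost the whole bar of B replicate 1 (99.7%), and Itgax is the largest part in A replicate 3 (54.1%) and B replicate 2 (45.9%).

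Itga4, which binds VCAM on inflamed endothelium when paired with Itgb1, was at 227, 108 and 196 CPM in A, against 144, 103 and 221 in B. The highest library was 2.20 times the lowest, the smallest span among the alpha chains. Per kb of coding length Itga4 was 42.5%, 18.8% and 102% of Itgb7 in A, against 36.7%, 20.3% and 79.0% in B. Against Itgb1 it was 49.7% to 131% in 5 libraries and 750.4% in B replicate 1, where Itgb1 was low. These percents depend on the length used and would be lower per kb of all exons. Itga4 has 3096 coding and 13978 exon bases, Itgb7 has 2418 and 2770, and Itgb1 has 2394 and 4081. Itgae, the other partner of Itgb7, reached 374 counts in A replicate 2 and 1425 in B replicate 2, with 0 to 3 elsewhere.

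Itga2, whose protein CD49b was part of the gate, reached 696 counts (14.0 CPM) in B replicate 1 and 1887 (31.9 CPM) in B replicate 2, with 0 in the other 4 libraries. A limit of 3 counts for a count of 0 corresponds to 0.0544 to 0.0650 CPM in A and 0.0469 CPM in B replicate 3. Such limits cover counting error only, since these libraries carry no molecular identifiers. The gene was thus undetected in 1 of the 3 B libraries and in all 3 A libraries. Where it was found it stood at 64.1% (B replicate 1) and 13.5% (B replicate 2) of Itgb1 per kb of coding length. Itgb1 was low in B replicate 1, at 6.18 CPM per kb against 67.1 in B replicate 2. Itga2 itself was lower in B replicate 1, at 3.96 CPM per kb against 9.03. The basophil marker sums of B replicates 1, 2 and 3 were 2521, 1587 and 1090.3 CPM. The natural killer cell sum was 920.2, 540.4 and 567 CPM in these libraries and 477 to 1185 in A. The platelet sum was 904, 653 and 598 CPM in them and 1287 to 1387 in A. Single platelet markers differed. Gp6 was at 0, 0.151 and 0 CPM in A, against 46.7, 34.6 and 8.52 in B. Ppbp and Gp1bb were lower in every B library, and Pf4 and Clec1b overlapped between the sets. All 8 natural killer and all 9 platelet markers had counts in some library, and the part of these cells in the Itga2 counts was not tested.

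Set B was compared with set A by edgeR's quasi-likelihood test over 9196 genes, with Benjamini-Hochberg adjustment. Of the 8 integrin and Selplg genes tested, 0 passed an adjusted p of 0.05, against 0.0217% of all genes tested (2 genes). At an unadjusted p under 0.05 the count was 0 of 8, against 6.36% of all genes. DESeq2 called 0 of the 8, where it called 7.16% of the 8314 genes to which it gave an adjusted p. Limma-voom called 0 of the 8, where it called 2.20% of genes tested. The 3 libraries of each set overlapped for all 8, where 14.1% of genes tested showed no overlap. Fitted differences were below 0 for 7 of the 8, and their median log2 difference was -0.45, against 4781 of 9196 genes below 0 and a median of -0.06. An adjusted p near 1 does not show that levels were equal, and the intervals show what these libraries could resolve. Leaving out 1 library turned the sign of Itgb2 (0.05 without A replicate 1), Itgal (0.29 without A replicate 1), Itga4 (0.00739 without A replicate 1 and 0.00421 without B replicate 2) and Selplg (-0.00131 without A replicate 3), so no direction is given for these genes.

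**Figure D3:**
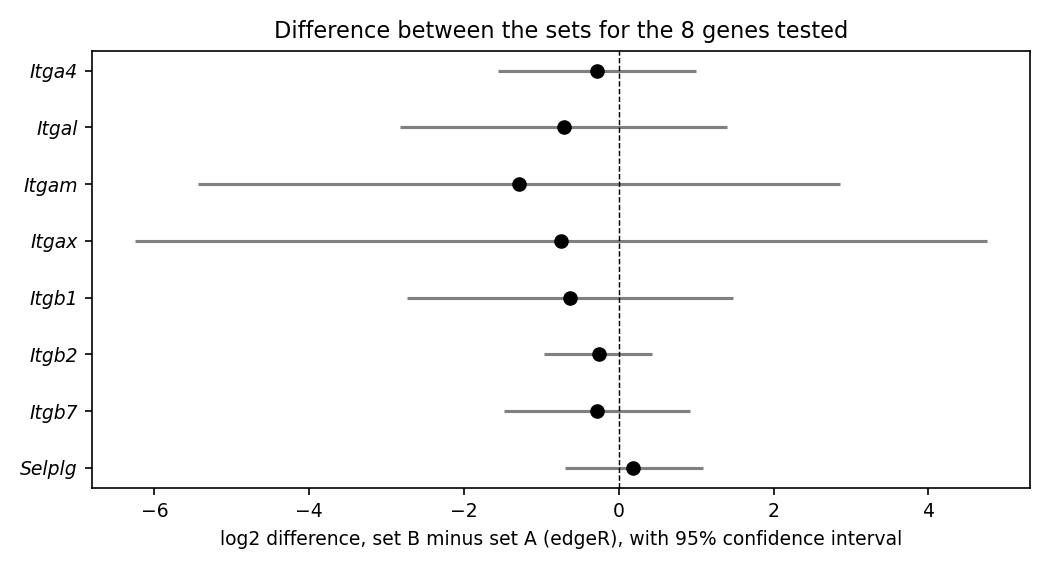
Points give the log2 difference of set B minus set A fitted by edgeR for the 8 genes tested, and lines its 95% confidence interval. All 8 intervals include 0 (dashed line), and they are narrowest for Itgb2 (-0.96 to 0.43) and widest for Itgax (-6.25 to 4.76).

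The narrowest intervals belonged to Itgb2, Selplg, Itgb7 and Itga4. Itgb2 averaged 1474 ± 411 CPM in A, against 1338 ± 255 in B (SD, n = 3 each), a log2 difference of -0.26 (SE 0.29, edgeR adjusted p = 1.00), and its 95% interval spanned B levels of 0.516 to 1.35 times those in A. Selplg averaged 1283 ± 516 CPM in A, against 1615 ± 473 in B (SD, n = 3 each), a log2 difference of 0.19 (SE 0.37), with an interval from 0.615 to 2.12 times. Itgb7 (338 ± 164 CPM in A, 307 ± 89.1 in B, SD, n = 3) had an interval from 0.360 to 1.90 times. Itga4 (177 ± 62.0 and 156 ± 59.9 CPM, SD, n = 3) had one from 0.338 to 2.00 times. Differences as large as 4-fold in either direction thus lay outside the intervals of these 4 genes.

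Itgal, Itgb1, Itgam and Itgax had wider intervals. Itgal was at 185 ± 146 CPM in A, against 125 ± 102 in B (SD, n = 3), with a log2 difference of -0.71 (SE 0.88) and an interval from -2.82 to 1.40. Itgb1 was at 147 ± 33.6 and 102 ± 76.9 CPM (SD, n = 3), with a difference of -0.63 (SE 0.88). Without B replicate 1 that difference was -0.13, so this library carried most of it. Itgam was at 73.9 ± 42.5 and 32.7 ± 37.8 CPM (SD, n = 3), with a log2 difference of -1.29 (SE 1.73), which was -0.73 without B replicate 1 and -2.74 without B replicate 3. For Itgax the levels were 80.1 ± 86.5 and 49.5 ± 47.4 CPM (SD, n = 3) and the log2 difference -0.74 (SE 2.29), and its sign turned without A replicate 3 (0.33) and by limma-voom (1.16). Itgax thus has no stable direction either.

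Levels near 0 in single libraries were more frequent among genes with a low mean, over the tested genes with a mean of at least 10 CPM. Of the 5285 tested genes with a mean of 10 to 100 CPM, 80.2% had at least 1 library under 1 CPM, and Itgam and Itgax fall in this class. The share was 20.0% of 1273 genes between 100 and 300 CPM, the class of Itgal, Itga4 and Itgb1, none of which had such a library. It was 0.245% of 408 genes between 300 and 1000 CPM, the class of Itgb7, and 0% of the 117 genes above, the class of Itgb2 and Selplg. What the low values of Itgam and Itgax come from was not tested.

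**Figure D4:**
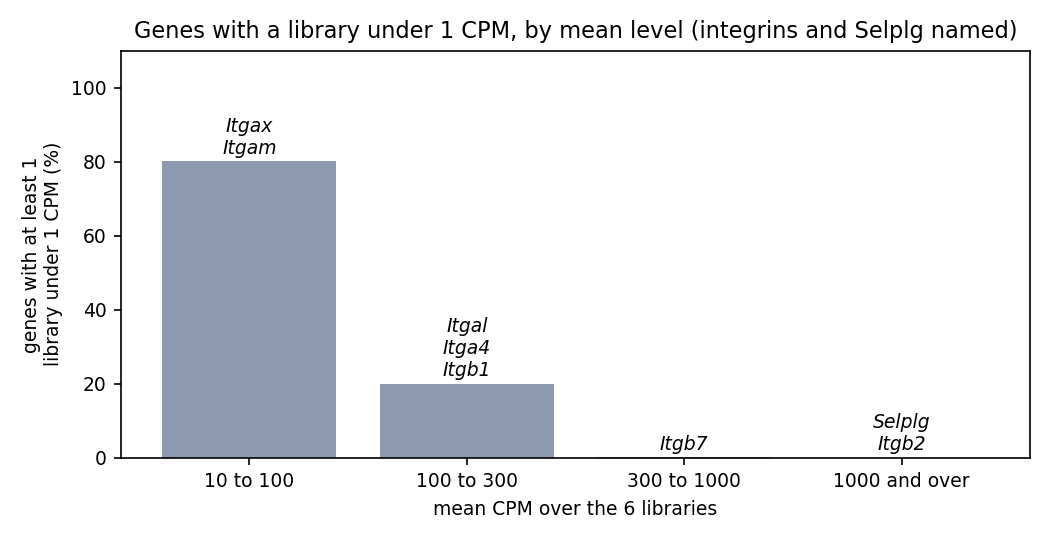
Bars give the percent of tested genes with at least 1 of the 6 libraries under 1 CPM, by the gene's mean CPM, with the integrins and Selplg named above the class they fall in. The share is 80.2% in the class of Itgax and Itgam and 0% in that of Selplg and Itgb2.

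Selplg was at 1879, 971 and 999 CPM in A, against 1660.2, 2064 and 1121 in B, abundant in every library, with overlapping sets. Selp and Sele, the selectins of platelets and endothelium, had 0 counts in all 6 libraries. For Selp this stood beside platelet markers that summed to 598 to 1387 CPM. Of a list of 9 selectins and other selectin ligands 5 could be tested and 0 passed, with a median log2 difference of 0.26, and the 3 smallest p belonged to Cd34, Spn and Glg1. Cd34 was at 54.6 CPM in A replicate 3 and at 0 to 0.342 CPM elsewhere. Cd44, another ligand of E-selectin, was at 138, 206 and 417 CPM in A, against 367, 426 and 169 in B.

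The genes that act in making PSGL-1 able to bind selectins were less even than Selplg, and all stood at lower levels. A library under 1 CPM occurred for 7 of the 9 tested. Among all tested genes it occurred for 80.2% at a mean of 10 to 100 CPM and for 20.0% at 100 to 300. In the class of Selplg the share was 0%. Of the 14 genes of this list 9 could be tested, 0 passed by edgeR, 1 had an unadjusted p under 0.05 (6.36% of all genes tested did), and the median log2 difference was 0.60. That gene was Fut7, the fucosyltransferase that adds the fucose needed for selectin binding. It had 8, 6 and 12 counts in A (0.145, 0.113 and 0.260 CPM) and 855, 3549 and 166 counts in B (17.2, 60.0 and 2.60 CPM). All 3 B libraries lay above all 3 A libraries, by a log2 difference of 7.13 (SE 2.34, edgeR unadjusted p = 0.0195 and adjusted p = 0.511). Sets without overlap, in either direction, were found for 14.1% of all genes tested. On this list 2 of the 9 tested lay higher in B without overlap and 1 lower. By edgeR an unadjusted p under 0.05 fell on 464 genes higher in B and 121 lower. Genes with a count numbered 9242 to 11281 in A libraries and 11141 to 14066 in B. DESeq2, which called 7.16% of the genes to which it gave an adjusted p, called Fut7 (adjusted p = 0.000158). Over the 14 alternatives the adjusted p ran from there to 0.998, with 1 past the threshold and B higher in all 14. The marker sums of basophils (1.71 to 118 CPM in A, 1090.3 to 2521 in B) and of neutrophils (2399.9 to 9449 in A, 12286 to 22831 in B) were also higher in every B library, and those of T cells, platelets and erythroid cells lower. The part of these cells in the Fut7 difference was not tested.

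Gcnt1, which builds the branched core that carries the fucose, was at 0.145, 14.1 and 0.0867 CPM in A, against 66.8, 28.9 and 29.7 in B, again with no overlap (edgeR adjusted p = 1.00). Tpst2, which sulfates the tyrosines of PSGL-1 that P-selectin contacts, had no overlap in the other direction, at 185, 167 and 162 CPM in A, against 111, 35.2 and 124 in B (edgeR adjusted p = 1.00). The sialyltransferase St3gal4 was at 0.181 and 0.0757 CPM in A replicates 1 and 2, at 152 CPM in A replicate 3, and at 152, 176 and 135 CPM in B. In A replicate 1, where Selplg stood at 1879 CPM, Fut7, St3gal4, St3gal6, Gcnt1, C1galt1 and C1galt1c1 each had 0 to 28 counts. These 6 of the 14 were named after their values were seen, and in the same library Tpst2 had 10190 counts, B4galt1 809, Slc35c1 519 and St3gal3 291. That library had 9242 genes with a count, the fewest of the 6. Low counts of these genes also occurred in other libraries. In A replicate 2, Fut7, St3gal4, C1galt1 and C1galt1c1 had 4 to 6 counts, with Gcnt1 at 744 and St3gal6 at 12314. In A replicate 3, Fut7, Gcnt1 and C1galt1 had 0 to 12 counts, and St3gal4, St3gal6 and C1galt1c1 had 6994 to 8053. C1galt1 had 4 counts in B replicate 2.

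**Figure D5:**
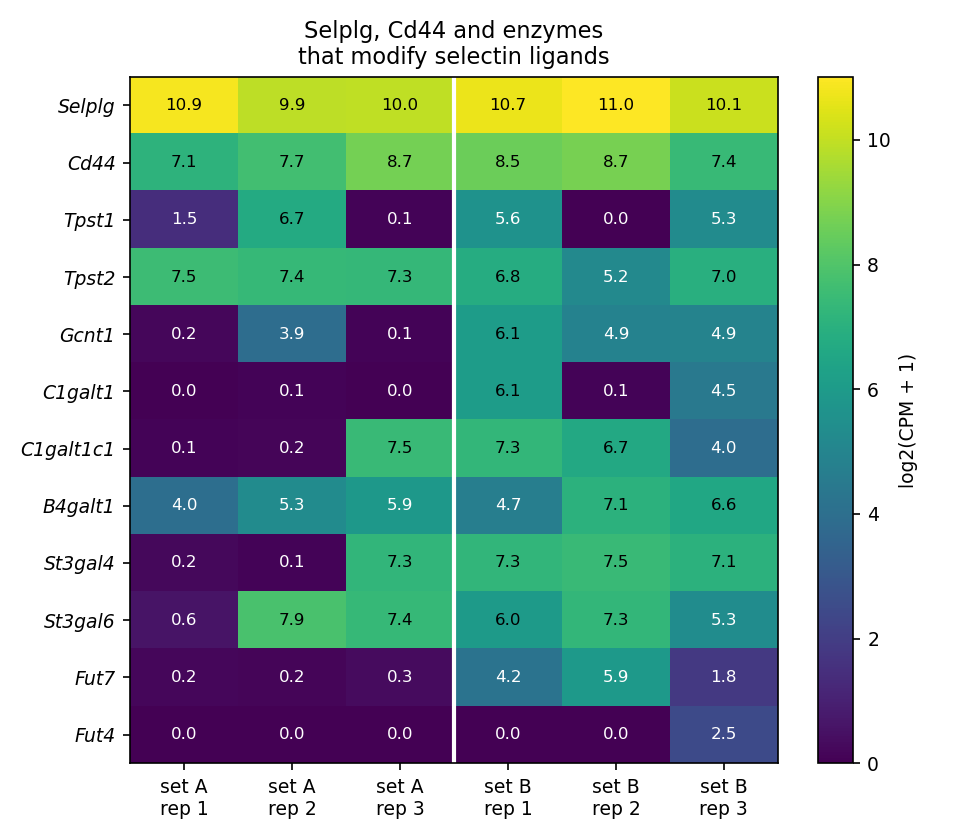
Each cell gives log2(CPM + 1) of a gene in a library, for Selplg, Cd44 and 10 genes that act in sulfating, extending, sialylating or fucosylating selectin ligands. Selplg and Cd44 are high throughout, and Fut7 is lower in the 3 A libraries (0.113 to 0.260 CPM) than in the 3 B libraries (2.60 to 60.0 CPM).

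Of 18 other integrin chains, 5 had 0 counts in all libraries (Itga8, Itga10, Itgb4, Itgb6 and Itgb8, named after their values were seen), 6 could be tested and 0 passed, with a median log2 difference of -0.48. Itga2b, the platelet chain, was at 99.1, 216 and 51.4 CPM in A, against 109, 77.4 and 60.4 in B. Its partner Itgb3 was at 0, 62.4 and 5.33 CPM in A, against 96.8, 0.101 and 16.6 in B. Itga6, a laminin receptor chain, was at 65.6, 39.7 and 21.9 CPM in A, against 0.402, 0.203 and 9.44 in B. The sets of Itga6 did not overlap, but the log2 difference of -3.75 (SE 2.22) did not pass (edgeR adjusted p = 1.00). Itga5, the fibronectin receptor chain, was at 38.4 to 46.0 CPM in A replicate 3 and B replicate 1, at 24.9 CPM in B replicate 3, and under 1 CPM in the other 3.

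Of 31 genes listed under integrin activation, its regulation and adaptors, 27 could be tested, 0 passed, and the median log2 difference was -0.15. Tln1 (talin), which binds integrin beta tails, was at 289 ± 131 CPM in A, against 192 ± 69.9 in B (SD, n = 3 each, log2 difference -0.68, SE 0.51). Fermt3 (kindlin-3), which acts with talin in blood cells, was at 620.5, 544 and 143 CPM in A, against 620.2, 554 and 495 in B. The 3 smallest p on this list belonged to Parvg, Vcl and Vasp. Vcl (vinculin), which links talin to actin, was at 66.3, 61.0 and 133 CPM in A, against 0.241, 16.3 and 0 in B, with no overlap and edgeR adjusted p = 1.00.

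Of 16 integrin ligands 4 could be tested, 0 passed, and 4 had 0 counts in every library. Icam1, the ligand of LFA-1, was at 13.4, 1.42 and 109.6 CPM in A, against 83.5, 132 and 119 in B (log2 difference 1.40, SE 1.47, edgeR adjusted p = 1.00). Thy1, which leukocyte integrins can bind, had no overlap, at 0.0544, 4.67 and 2.51 CPM in A, against 12.2, 26.5 and 22.2 in B, and did not pass (edgeR adjusted p = 1.00). Icam2, another ligand of LFA-1, was at 0.290, 229 and 249 CPM in A, against 45.2, 141 and 102 in B (log2 difference -0.78, SE 1.64). Of 13 sheddases and membrane partners 12 were tested and 0 passed, with a median log2 difference of -0.27. Cd47, which associates with integrins, did not overlap between the sets, at 549.6, 707 and 679 CPM in A, against 922, 809 and 869 in B (log2 difference 0.33, SE 0.18, edgeR adjusted p = 1.00). Its unadjusted p was second on this list to that of the tetraspanin Cd81 (log2 difference -1.04, SE 0.51), and Cd9, another tetraspanin, followed (-0.38, SE 0.24).

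The genes whose pattern over the 6 libraries lay closest to each of the 8 genes with a mean of at least 10 CPM over all libraries (all but Itga2) were found by the mean absolute distance of centred log2(CPM + 1), among 7082 others past the same minimum. For Itgb2 these were Hspa8 (0.0879) and H2-Q1 (0.112, in a family whose members share sequence), with 49 genes within 0.2. For Selplg they were Selenow (0.128) and Pycard (0.142), for Itgb7 Gm9385 (0.138) and Polr2m (0.165), and for Itga4 Taf10 (0.137) and Chchd2 (0.138). For Itgb1 they were Tes (0.121) and Sema4a (0.295), and for Itgal Stxbp2 (0.212) and Bloc1s2 (0.245). Itgam lay closest to Oaz2 (0.153) and Rsbn1 (0.295), and Itgax to Rbbp4 (0.187) and Mydgf (0.198). Among these 8, Itgb2 and Selplg were nearest to each other, at 0.338, and the gene nearest to Itgax was Itgam, at 1.85. These distances describe 6 libraries and carry no test.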

How the data were processed

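The authors deposited raw counts, as whole numbers per Ensembl gene with 1 column per library. Per the labels' protocols, libraries were made with Smart-seq2 and read as pairs of 150 bases. HISAT2 2.2.1, cutadapt 1.9 and DESeq2 are named, per the submitters' processing notes, without their roles. What counted the reads, on which build and annotation and with which strand setting, was not given in the labels. Symbols were matched for 55141 of 55401 identifiers.

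Counts were fitted with edgeR 4.0.16 (R 4.3.3): filterByExpr, TMM, glmQLFit with robust=TRUE, and Benjamini-Hochberg adjustment over 9196 genes. DESeq2 1.42.0 and limma-voom (limma 3.58.1) with sample quality weights were alternatives. Coding lengths are the longest in GENCODE M21, used because no RefSeq protein table was at hand. This comparison was added after seeing the data, in place of levels within genes only.

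Genes and lists were chosen with earlier results of these data known. Named genes are the 9, those always given (Selp, Sele, Itgb3, Itga2b, Itgae, Itgad, Tln1, Fermt3, Cd44 and Icam1), the 3 with the smallest p in each list, and the 2 nearest in pattern. Others were named after their values were seen. One gene of the plan is not reported here.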

Additional observations from a re-analysis of the deposited data

How the results depend on the processing

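Of the integrin and Selplg genes tested (8, or 9 where Itga2 entered), 0 passed under each of the 14 alternatives: DESeq2, limma-voom, RLE scaling, scaling by totals, robust=FALSE, a replicate block, no filter, a stricter one (mean of 10 CPM, 10 counts throughout 1 set), and each library left out. Over all genes the count of 2 became 595 by DESeq2, 202 by limma-voom and 0 with the replicate block (345 at an unadjusted p under 0.05), and was 0 to 1 with a library left out (602 to 1030 unadjusted). The 112 recomputed differences kept their direction in 105 cases. Those that turned were Itgax by limma-voom (1.16) and, with a library left out, Itga4 (-0.59 to 0.00739), Itgal (-1.57 to 0.29), Itgax (-1.63 to 0.33), Itgb2 (-0.42 to 0.05) and Selplg (-0.00131 to 0.65). The cause was not tested. Limma-voom moved the median difference of all genes by 0.51 and the block by 0.31. Itga2 could be tested with no filter (unadjusted p = 0.0506, adjusted p = 0.416) and with 1 A library or B replicate 3 left out (edgeR adjusted p 0.440 to 0.798), and did not pass. Without B replicate 3, the only B library with 0 counts of Itga2, the edgeR unadjusted p was 0.0267. Leaving that library out removes the contrary value, so this p gives no support for a difference. With a library left out, Itga2 passed the filter through B replicates 1 and 2 alone. Deviations of same-numbered libraries correlated at 0.028, -0.0241 and 0.0261 across genes, and not every library was closest to its own number, so the numbers were not taken as pairs. The order of levels moved 2 of 9 genes with no length, 6 per kb of all exons (added after seeing the data) and 0 to 2 with a library left out.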
